A study of Mus musculus with 7 samples.

Results

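The genes of fibroblast growth factor (FGF) signalling were followed in 2 lists of H3K27me3 peaks, 1 from control and 1 from Ring1a/b double-knockout (2KO) epidermal progenitor cells. The 30 genes comprised 22 Fgf ligands, 4 receptors (Fgfr1 to Fgfr4) and 4 Sprouty genes (Spry1 to Spry4), out of 21631 protein-coding genes on the autosomes and the X chromosome. They were chosen by gene family, but with earlier results of these data known. H3K27me3 is the trimethyl mark that Polycomb repressive complex 2 places on lysine 27 of histone H3 at silent developmental genes. It had been mapped by ChIP-seq in the back-skin epidermis of newborn mice (postnatal day 0). The cells had been sorted as EpCAM-positive, Sca1-positive and high in α6-integrin. Control cells and cells labelled Ring1a/b 2KO, which lack the ubiquitin ligase subunits of Polycomb repressive complex 1, had 2 ChIP libraries and 1 peak list each. H3K27me1 is named in the titles of the 2KO libraries, but H3K27me3 in their antibody label and in the name of the list. The labels used here name no strain, no control alleles, no Cre driver and no number of animals. Marked genes are those with a peak over the start or end of the gene extended by 1 kb. None of the 8 basal epidermal markers examined (such as Krt5, Krt14 and Trp63) was marked in either list. In control cells 2 of 6 melanocyte, 4 of 6 dermal fibroblast, 1 of 4 endothelial and 0 of 5 immune markers were marked. In 2KO cells 1, 2, 1 and 2 of these were marked. Over all genes 10.1% were marked in the control list and 6.63% in the 2KO list. Counts of 0 among so few markers are near those shares and say little about cell identity. Since each genotype had a single list, no error between replicates could be given and no test between genotypes was made. Sequencing depth is unknown, and the mark may be present where no peak was called.

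Most FGFs are secreted ligands that bind receptor tyrosine kinases together with heparan sulphate, and the receptors signal through the Ras and MAP kinase cascade. Fgf11 to Fgf14 are not secreted and bind voltage-gated sodium channels. Sprouty proteins are induced by this signalling and dampen it. In skin, Fgf7 and Fgf10 come from mesenchymal cells and act on the form of Fgfr2 made by keratinocytes, while Fgf5 ends the growth phase of the hair follicle.

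Many ligand genes carried H3K27me3 peaks, and at 10 of the 11 ligands marked in control cells a peak was also called in 2KO cells. Among the receptor and Sprouty genes only Fgfr4 and Spry4 were marked, in control cells alone. Of 22 ligand genes, 11 were marked in control cells (50%, 95% Wilson interval 30.7 to 69.3), 11 in 2KO cells (50%, 30.7 to 69.3) and 10 in both lists (45.5%, 26.9 to 65.3). These were Fgf2, Fgf3, Fgf4, Fgf5, Fgf8, Fgf9, Fgf14, Fgf15, Fgf17 and Fgf23, with Fgf10 in the control list only and Fgf12 in the 2KO list only. The 22 include Fgf11 to Fgf14, which are not secreted. Without them, 10 of 18 ligands were marked in control cells (55.6%, 33.7 to 75.4). In 2KO cells 9 were marked (50%, 29 to 71), all of them in both lists. Of 8 receptor and Sprouty genes, Fgfr4 and Spry4 were marked in control cells (25%, 7.15 to 59.1) and 0 in 2KO cells (0%, upper bound 32.4%). Spry3, whose listed position lies before the first peak of its chromosome, is among the 8; without it the shares were 28.6% (8.22 to 64.1) and 0% (upper bound 35.4%) of 7 genes. Over all 21631 genes the shares were 10.1% in the control list, 6.63% in the 2KO list and 5.59% in both. Marking in the control list only was found for 4.48% of all genes, and in the 2KO list only for 1.04%. Intervals cover counting error only and treat genes as independent, although some, such as Fgf3, Fgf4 and Fgf15, are neighbours. Those of ligands and of receptor and Sprouty genes overlapped, which does not show that the classes are alike. With so few receptor and Sprouty genes, a count of 0 in the 2KO list is near that share of all genes. Their control share of 25% stood above the 10.1% of all genes, which lies inside its interval. Genes of 1 list are not replicates, so the difference from the ligands was not tested. Neither Fgfr4 nor Spry4 counted as marked when only the widest peaks of the control list, as many as the 2KO list holds, were used.

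**Figure D1:**
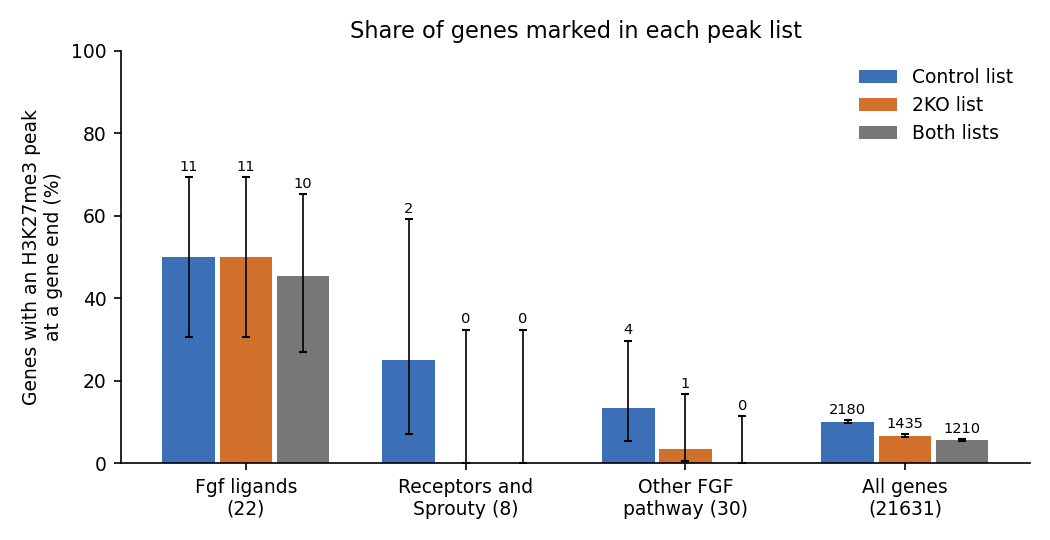
Percent of genes with an H3K27me3 peak within 1 kb of a gene end (y axis) for 4 groups of genes (x axis, number of genes in parentheses) in the control list, the 2KO list and both. Error bars are 95% Wilson intervals and the numbers above them are genes; the ligands stand at 50% in each list, and no receptor or Sprouty gene has a 2KO peak.

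Of the 13 member genes marked in control cells, 10 were also marked in 2KO cells (76.9%, 49.7 to 91.8), beside 55.5% of all control-marked genes. The 13 genes lay at 13 different control peaks, and these covered 95.4 kb, of which 77.2% lay under 2KO peaks. At the ligands 82.5% of 89.2 kb was covered, and at Fgfr4 and Spry4 0 of 6.13 kb. Over all gene-end control peaks 55.5% of bases were covered. Width moved with this: the ligand peaks had a median of 8.69 kb, the Fgfr4 and Spry4 peaks one of 3.07 kb, and the 2010 control peaks at all gene ends one of 5.45 kb. Of these gene-end peaks, 78.8% of those of 8 kb or more met a 2KO peak, 58.1% of those of 4 to 8 kb and 34.3% of those under 4 kb. The member peaks in these classes met one in 5 of 6, 5 of 5 and 0 of 2 cases. The part of width in the difference between ligands and receptors was not tested.

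To show the sequence under the marked starts, 300 bases around the 5′ transcript start (250 before and 50 after) are given for a ligand in both lists, a ligand and a receptor of the control list only, and a receptor with no peak. Within each class the gene with the widest control peak was taken, or the one richest in CpG where there was no peak. Fgfr3 is shown at its first listed start, and its second, at 33722306, held 30 CpG. Sequences are from RefSeq, build GRCm38.p6, on the plus strand, and capitals mark CpG dinucleotides, the feature of promoters that Polycomb complexes are known to occupy. They lie at chr5:98253934-98254233 (Fgf5, 29 CpG), chr13:118714449-118714748 (Fgf10, 10 CpG), chr13:55152568-55152867 (Fgfr4, 20 CpG) and chr5:33721474-33721773 (Fgfr3, 26 CpG).
Fgf5: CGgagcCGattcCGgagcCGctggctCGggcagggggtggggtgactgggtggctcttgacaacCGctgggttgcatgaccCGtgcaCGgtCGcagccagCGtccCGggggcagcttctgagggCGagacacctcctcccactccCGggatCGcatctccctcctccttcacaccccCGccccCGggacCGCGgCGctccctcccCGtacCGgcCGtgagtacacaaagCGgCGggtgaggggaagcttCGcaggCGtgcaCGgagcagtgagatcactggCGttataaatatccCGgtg
Fgf10: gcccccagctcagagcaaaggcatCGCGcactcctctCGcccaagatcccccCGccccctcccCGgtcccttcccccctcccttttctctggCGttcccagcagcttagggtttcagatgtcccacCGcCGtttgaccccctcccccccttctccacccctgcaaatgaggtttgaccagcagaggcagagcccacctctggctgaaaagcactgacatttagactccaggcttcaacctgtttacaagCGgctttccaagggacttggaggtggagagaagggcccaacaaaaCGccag
Fgfr4: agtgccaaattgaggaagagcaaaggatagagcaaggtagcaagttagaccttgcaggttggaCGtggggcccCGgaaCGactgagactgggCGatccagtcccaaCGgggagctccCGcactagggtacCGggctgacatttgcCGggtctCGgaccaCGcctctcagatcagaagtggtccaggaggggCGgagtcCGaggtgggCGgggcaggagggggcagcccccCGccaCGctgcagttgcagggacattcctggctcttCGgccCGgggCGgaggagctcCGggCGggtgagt
Fgfr3: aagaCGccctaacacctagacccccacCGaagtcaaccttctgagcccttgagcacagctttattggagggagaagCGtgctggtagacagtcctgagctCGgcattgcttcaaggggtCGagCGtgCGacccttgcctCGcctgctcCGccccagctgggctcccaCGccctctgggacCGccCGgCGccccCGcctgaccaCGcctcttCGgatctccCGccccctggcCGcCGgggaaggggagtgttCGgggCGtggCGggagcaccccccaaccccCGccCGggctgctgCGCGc
CpG runs through the whole Fgf5 window, whereas in Fgf10 it is sparse. The unmarked Fgfr3 window is nearly as rich in CpG as that of Fgf5. The motif CG reads the same on both strands and occurs at least once in 95.5% of all 21045 listed starts of protein-coding genes.

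The Fgf4 subfamily held the widest peak of all members. Fgf5 (chromosome 5, 98254184 to 98277033) lay under a 14.4 kb control peak (98249803 to 98264239) that began 4.38 kb before the gene and covered the promoter shown above. The 2KO peak (98250986 to 98262601) measured 11.6 kb and lay wholly inside it, with 80.5% of the control peak covered. A second control peak of 2.06 kb inside Fgf5 (98269025 to 98271081) had no 2KO peak. Fgf4, a growth factor of the early embryo and limb bud (chromosome 7, 144861386 to 144865245), was covered along its full length in each list, by peaks of 9.58 and 9.86 kb whose edges differed by 267 and 12 bp. Fgf6, an FGF of skeletal muscle (chromosome 6, 127015542 to 127024718), had no control peak within 50.4 kb. A 2KO peak of 6.03 kb lay inside it and covered 65.7% of the gene, but stopped 245 bp short of the window at one end and 901 bp short at the other, so Fgf6 counted as unmarked.

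Fgf3, Fgf4 and Fgf15 are neighbours on chromosome 7 and span 62.3 kb. Each had its own peak in each list, not a shared domain. Fgf3, a ligand of inner ear development (144838612 to 144843348), had a control peak of 6.92 kb and a 2KO peak of 8.98 kb; the 2KO peak began 2084 bp further from the gene and the other edges differed by 18 bp. Fgf15, the mouse counterpart of the human endocrine hormone FGF19 (144896532 to 144900953), had peaks of 7.21 and 7.03 kb and was covered in full in both. The gaps between the peaks measured 15.9 and 26.2 kb in control cells and 15.6 and 26.1 kb in 2KO cells. Beyond Fgf15 the 2KO list had a further peak (144907193 to 144913185) with no control peak there. The neighbouring cell-cycle gene Ccnd1 was not marked in either list.

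Fgf6 and Fgf23 form another pair of neighbours, on chromosome 6, and here the lists differed more. Between the start of Fgf6 and the end of Fgf23 (66.8 kb) there was 1 control peak of 9.05 kb, and there were 4 2KO peaks that summed to 23 kb. Fgf23, a hormone of phosphate balance made in bone (127072902 to 127082296), had a control peak at 127075079 to 127084128 and a 2KO peak of 10.6 kb at 127073615 to 127084228. Both left the 5′ end of Fgf23 free, by 2177 bp in control and 713 bp in 2KO cells, and ran past its other end to within 1 kb of Tigar, which also counted as marked. The 3 other 2KO peaks, in Fgf6 and between the genes, met no control peak.

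**Figure D2:**
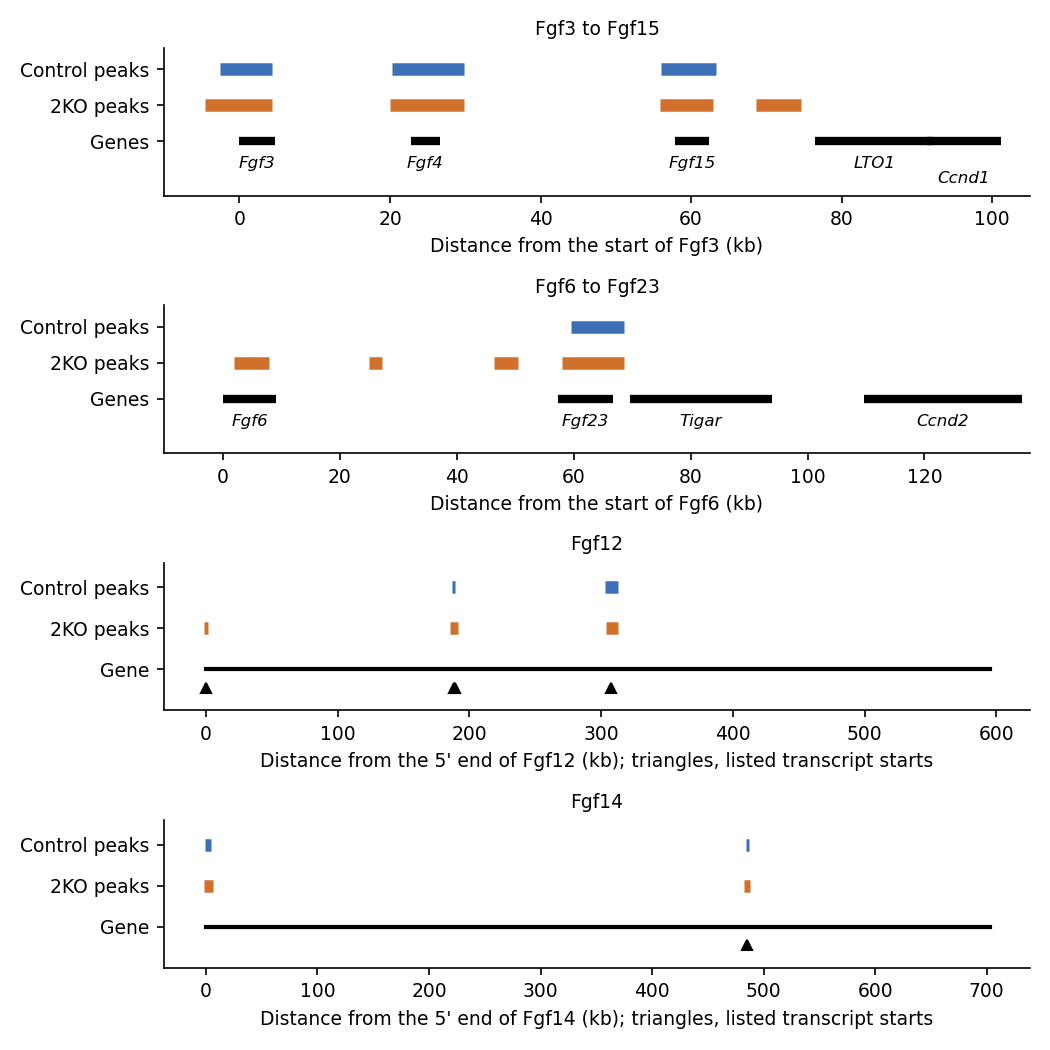
Control peaks, 2KO peaks and genes along the Fgf3 to Fgf15 and Fgf6 to Fgf23 regions (distance from the start of the first gene, kb) and along Fgf12 and Fgf14 (distance from the 5′ end, kb; triangles are listed transcript starts). The 3 peaks over Fgf3, Fgf4 and Fgf15 stand at the same places in each list, the 2KO list has 4 peaks against 1 between Fgf6 and Fgf23, and peaks inside Fgf12 and Fgf14 lie at transcript starts.

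In the Fgf7 subfamily, Fgf10, a mesenchymal ligand needed for limb and lung buds (chromosome 13, 118714699 to 118792573), had a 9.18 kb control peak (118710200 to 118719376) centred near its start. The nearest 2KO peak lay 312 kb away, and no other control peak lay within 500 kb. It was the only one of the 11 control-marked ligands without a 2KO peak, and of the 6 member peaks of 8 kb or more the only one without a 2KO peak. Fgf7, also a mesenchymal ligand, was unmarked in each list, with the nearest peaks 19 kb (control) and 18.3 kb (2KO) away. Fgf22 was unmarked too, and its nearest control peak lay 36.3 kb away.

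The Fgf8 subfamily encodes ligands of embryonic signalling centres. Fgf8 (chromosome 19, 45736491 to 45742941) had a control peak of 9.7 kb and a 2KO peak of 8.4 kb, which reached 3.57 and 3.53 kb past its end of higher coordinate. They covered 95% and 75.6% of the gene. Fgf17 (chromosome 14, 70636203 to 70642268) had narrower peaks of 4.23 and 3.42 kb at its end of higher coordinate, and 80.8% of the control peak was covered. Fgf18, a ligand of bone and cartilage growth (chromosome 11, 33116970 to 33147400), counted as unmarked, but had peaks in each list inside the gene near its 3′ end, of 4.11 kb (33120453 to 33124563) and 4.98 kb (33120003 to 33124984). These stayed 22.8 and 22.4 kb away from its 5′ end.

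Fgf9, a ligand of gonad and lung development (chromosome 14, 58070671 to 58112854), was the marked member of its subfamily, with peaks of 8.69 and 7.5 kb over its 5′ end. Fgf16 and Fgf20 had no peak within 500 kb in either list. Fgf2, a broadly acting mitogen (chromosome 3, 37348477 to 37410106), had a control peak of 4.72 kb over its 5′ end that lay wholly within a 2KO peak of 7.94 kb. Among the gene-end peaks of members marked in both lists this was the largest widening, 1.68-fold. Peaks inside genes were not ranked. Fgf1, its closest relative, was unmarked, with control peaks no nearer than 64.2 kb. Fgf21, a hormone of liver and fat, was unmarked as well.

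Among the 4 intracellular FGFs, peaks lay at internal transcript starts of long genes. Fgf14 (chromosome 14, 123974441 to 124677686, 703 kb) had peaks of 5.51 kb (control) and 8.25 kb (2KO) over its 5′ end. A second pair of 2.78 kb (124191159 to 124193940) and 5.45 kb (124189778 to 124195227) covered a listed start at 124192546. Fgf12 (chromosome 16, 28157783 to 28753243, 595 kb) had a peak over its 5′ end in the 2KO list only, of 3.55 kb (28751547 to 28755099). Inside the gene, pairs of peaks of 2.33 and 6.08 kb and of 9.18 and 9.09 kb covered the 3 other listed starts, at 28564951, 28564495 and 28446075, in both lists. Fgf12 therefore counted as marked in the 2KO list only, although 3 of its 4 listed starts were under control peaks. Fgf11 and Fgf13 had no peak in the gene, and the nearest to Fgf13 lay 590 kb away.

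Of the 4 receptors, 1 was marked in control cells (25%, beside 10.1% of all genes) and 0 in 2KO cells (beside 6.63%). Fgfr1, Fgfr2 and Fgfr3, the receptors with splice forms known in epithelium and mesenchyme, were unmarked. The nearest control peaks lay 163, 903 and 185 kb away, in that order, and the nearest 2KO peaks 164, 579 and 179 kb. Fgfr4, best known from liver (chromosome 13, 55152818 to 55168759), had a control peak of 2.94 kb (55150704 to 55153647) over the promoter shown above. Its nearest 2KO peak lay 239 kb away. Of 8 control peaks within 500 kb of Fgfr4, at gene ends or not, 3 met a 2KO peak. Of the 2010 control peaks at all gene ends, a different set, 56.5% met one, so 3 of 8 only describes this place.

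Among the Sprouty genes, 1 of 4 was marked in control cells (25%, 4.56 to 69.9, beside 10.1% of all genes) and 0 in 2KO cells (beside 6.63%). With so few genes, whether they resemble the receptors cannot be told. Spry1 and Spry2 were unmarked, with the nearest peaks of either list 288 and 1420 kb away. Spry4 (chromosome 18, 38586247 to 38601347) had a control peak of 3.19 kb (38597866 to 38601052) inside the gene that ended 295 bp before its end of higher coordinate. The same peak marked Arhgap26, which begins at 38601617, so it is not assigned to Spry4 alone. All 3 control peaks within 500 kb of Spry4 were without a 2KO peak. Of the 2010 control peaks at all gene ends, a different set, 56.5% met one, so a count of 3 peaks says little. Spry3 was placed by the gene table at 101352 to 110912 of the X chromosome. No peak of either list lay in the first 3 Mb of any chromosome, and the smallest start on the X chromosome was 6091665, so its unmarked state says little.

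**Figure D3:**
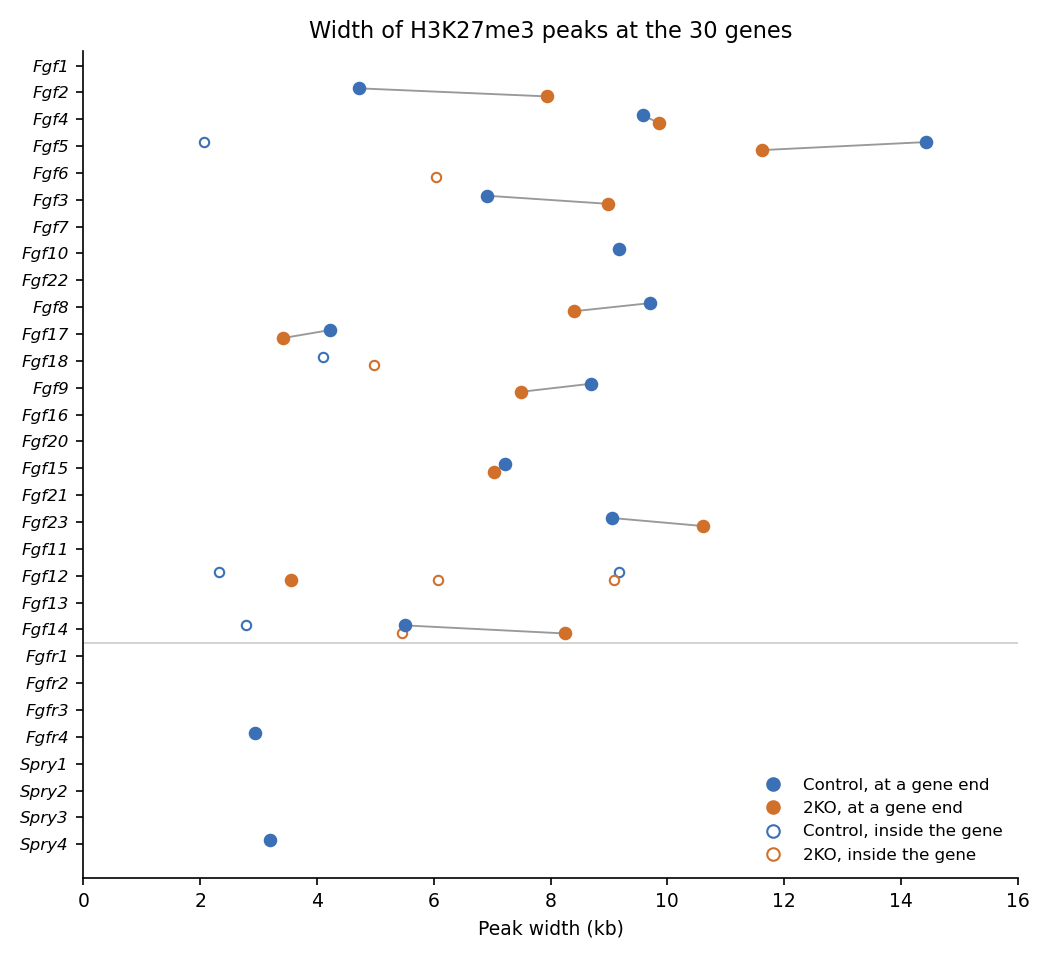
Width in kb (x axis) of each H3K27me3 peak at the 30 genes (y axis), with filled points for peaks at a gene end, the widest one per list, open points for peaks inside a gene, and lines joining the lists. Widths run from 2.06 to 14.4 kb, 10 ligands have both filled points, and Fgf10, Fgfr4 and Spry4 have a filled control point alone.

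At the 10 genes marked in both lists the called width of the gene-end peak changed in either direction. It was larger in 2KO cells at Fgf2, Fgf3, Fgf4, Fgf14 and Fgf23 and smaller at Fgf5, Fgf8, Fgf9, Fgf15 and Fgf17. The log2 ratio of 2KO to control width went from -0.31 at Fgf5 and Fgf17 to 0.75 at Fgf2. On the linear scale the ratio was 1.68 at Fgf2, 1.5 at Fgf14, 1.3 at Fgf3, 1.17 at Fgf23 and 1.03 at Fgf4. It was 0.975 at Fgf15, 0.866 at Fgf8, 0.863 at Fgf9, 0.808 at Fgf17 and 0.805 at Fgf5. Over all 1210 genes marked in both lists the median log2 ratio was 0.08, with 56.3% wider in 2KO cells, compared with 5 of 10 here.

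**Figure D4:**
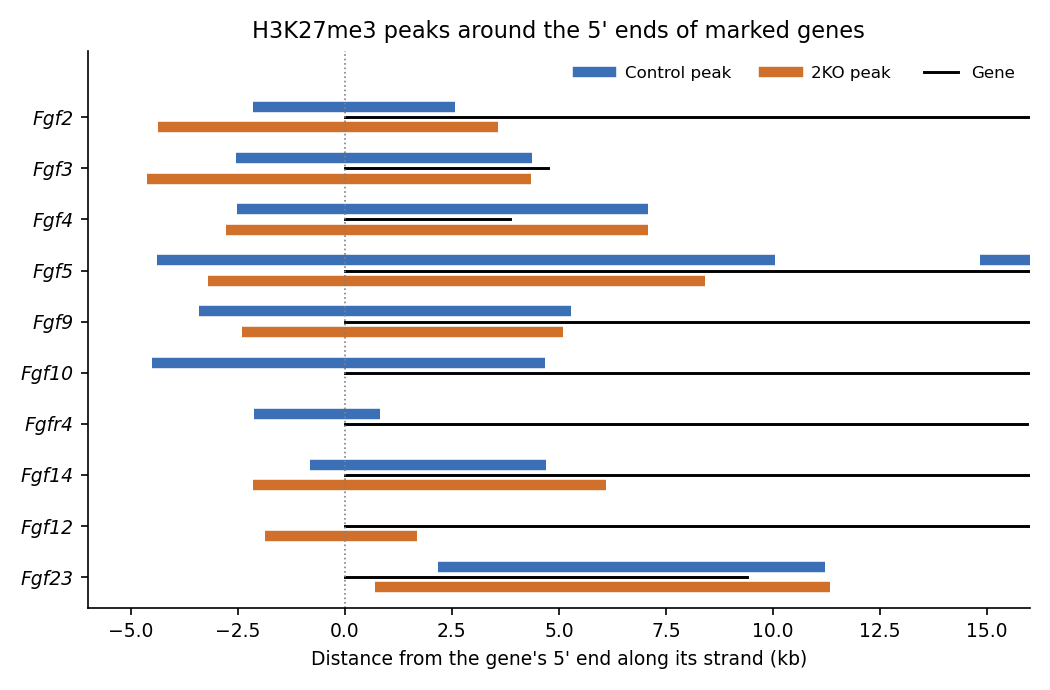
Position of control and 2KO peaks relative to the 5′ end of 10 marked genes whose strand was known (x axis in kb along the strand, cut at 16 kb; black lines are genes). Peaks lie across the 5′ end in 9 of the genes in at least 1 list, while those of Fgf23 begin 2177 bp (control) and 713 bp (2KO) inside the gene.

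Strand was known for 21 of the 30 genes. Of these, 8 had the 5′ end itself under a control peak, 7 under a 2KO peak and 6 under both. Over the 17274 protein-coding genes of known strand the shares were 7.46% in the control list and 4.5% in the 2KO list. Their share under both is not given here, so whether 6 under both is usual cannot be told. The 21 genes had 28 listed transcript starts, of which 9 lay under peaks of both lists, 2 under control peaks only (Fgf10 and Fgfr4), 1 under a 2KO peak only (Fgf12) and 16 under none. CpG counts in the 300 bases had a median of 24 (range 12 to 34) at the 9 starts, which came from 7 genes. Fgf12 alone gave the counts 34, 29 and 22 among them. The median was 14.5 (range 3 to 47) at the 16 starts, from 12 genes. Over all 21045 listed starts the median was 13, over the 1577 of them under a control peak 19, and over the 917 under a 2KO peak 15. No peak of either list lay over 19361 of the 21045, and the number under both lists is not given here. At least 20 CpG were held by 7 of the 12 starts under a peak, by 7 of the 16 under none and by 36.3% of all listed starts. Fgf12, Fgf13 and Fgfr3 gave more than 1 start each, and the start of Fgf23, which counted as marked at its other end, is among those under none. The most CpG-rich member start, that of Fgf18 with 47, had no peak, and neither had those of Spry1 (29) and Spry2 (28). Fgf1, Fgf8, Fgf15, Fgf16, Fgf17, Fgf20, Fgfr1, Spry3 and Spry4 were not counted here.

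**Figure D5:**
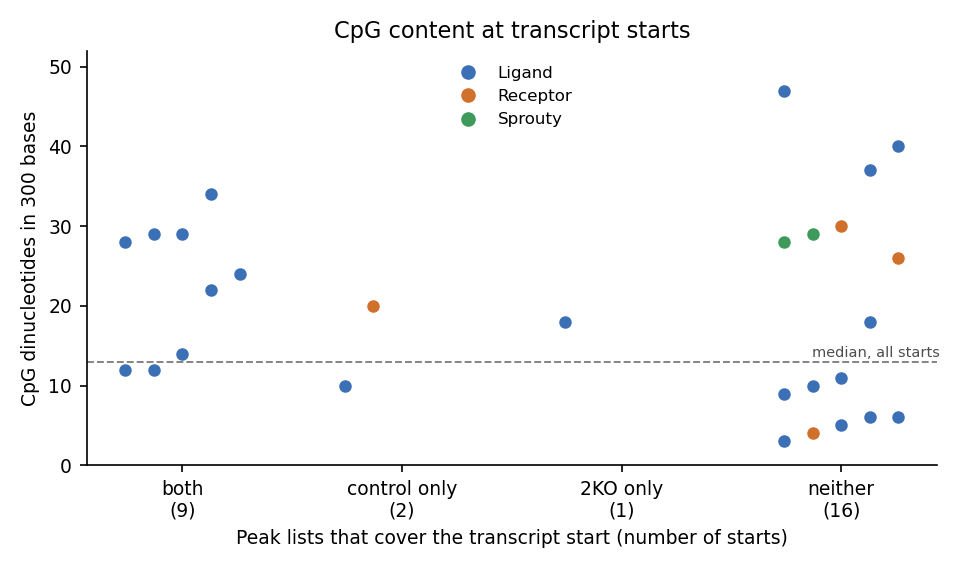
Number of CpG dinucleotides in 300 bases around each of 28 listed transcript starts (y axis), by the lists whose peaks cover the start (x axis, number of starts in parentheses), coloured by ligand, receptor or Sprouty gene. The dashed line is the median of all listed starts, 13; starts with 20 or more CpG occur with and without peaks.

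Among 30 further genes of the pathway, marking was closer to that of all genes: 4 were marked in control cells (13.3%, 5.31 to 29.7), 1 in 2KO cells (3.33%, 0.591 to 16.7) and 0 in both. The 4 control peaks lay at Kl, a co-receptor for Fgf23 (2.41 kb), and at 3 genes that modify heparan sulphate, Hs6st2 (7.33 kb), Sulf1 (1.69 kb) and Sulf2 (2.94 kb). None of them met a 2KO peak. Spred3, which encodes a Sprouty-related inhibitor, was marked in 2KO cells only, by a peak of 2.7 kb that also marked Fam98c. Etv4, a transcriptional target of FGF signalling, had a 1.81 kb control peak inside the gene and was unmarked at its ends. None of the 6 adaptor and signalling genes, such as Frs2 and Grb2, was marked. Of the 5 feedback inhibitors, Spred3 was the only one marked. With so few genes, counts of 0 are near the shares of all genes, 10.1% in the control list and 6.63% in the 2KO list.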

How the data were processed

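The authors deposited, for each genotype, 1 list of H3K27me3 peaks that holds positions in base pairs per the file headers and no score, height or p-value. Bowtie2 2.3.3.1, SAMtools 1.9 and build mm10 are named in the submitters' processing notes; which caller and cut-off produced the peaks, and whether input was used or replicates were pooled, is not given in the sources used here. Fewer peaks would be called at a higher cut-off or lower depth. The start column was taken as 0-based; printed positions count from 1. Input and Eed cKO libraries were not analysed here.

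Gene positions, strands and promoter sequences came from RefSeq tables of GRCm38.p6, the build of mm10. Peaks and windows overlapped when they shared at least 1 bp. Counts, covered bases and 95% Wilson intervals came from Python 3.11.15 (pandas 2.3.3, numpy 2.4.6, scipy 1.17.1), and figures from matplotlib 3.10.9. The overlap code was tested on simulated peaks. The members and lists were chosen with earlier results of these data known. Named were members marked in either list, unmarked members with a peak in the gene, and marked genes of the pathway list; other unmarked genes are named to account for every member or as examples. Alternatives covered the window, the target, peak width, merging and the overlap required.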

Additional observations from a re-analysis of the deposited data

How the results depend on the processing

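No paired analysis was possible because the lists hold no values per replicate; leaving out a replicate was not possible either. Over the alternatives run, 8 to 13 ligands were marked in the 2KO list (11 of 22 as reported). The count of 8 came from using the 5′ end alone or any listed transcript start, where only 16 ligands enter. Receptor and Sprouty genes marked in the 2KO list or in both lists stayed at 0. The 77.2% of control bases under 2KO peaks ranged from 73.4 to 82.5%. Using the 5′ end of the gene alone, for the 16 ligands and 5 other members of known strand, gave 7 ligands marked in control cells, 6 in both lists and 1 receptor or Sprouty gene in control cells; fewer genes enter. The last count was also 1 with any listed transcript start, an alternative chosen after seeing the data, and 1 with a window of 0 bp, where Spry4 drops out. When peaks below the median control width were dropped, or the widest peaks were taken in equal numbers, it was 0 and that of further pathway genes was 1, since these peaks are narrow. Fgf18 counted as marked in both lists, and Fgf6 in the 2KO list only, with a 5 kb window or the whole gene. Fgf12 counted as marked in both lists with the whole gene or any listed start, and Fgf23 as marked in the 2KO list only by its start. Without peaks below the median control width, Fgf2 was marked in the 2KO list only and Fgf12 and Fgf17 in neither.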

Other observations

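The surroundings of the members differed in how many peaks they held. For 6 members no peak of either list lay within 500 kb of the gene: Fgf13, Fgf16, Fgf20, Fgfr2, Spry2 and Spry3, the last with the doubtful position given above. The share of all genes without such a peak is not given here, so whether this count is usual cannot be told. Fgf1 and Spry4 are 237 kb apart on chromosome 18, so their ranges overlap. Together they held 3 control peaks, 2 of them in range of both genes, and 0 2KO peaks. Around Fgf8 there were 7 peaks in each list, and 5 of the 7 control peaks met a 2KO peak. Around Fgf21, which was unmarked, 7 control peaks were called, of which 5 met a 2KO peak. Of the 2010 control peaks at all gene ends, 56.5% met one. The share over all control peaks is not given here, so these counts only describe the places named.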
